A study of Mus musculus with 8 samples.

Results

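The bone morphogenetic protein (BMP) pathway was followed through 10 genes in hearts with and without Mettl3: the ligands Bmp2, Bmp4, Bmp6 and Bmp10, the receptors Bmpr1a and Bmpr2, the inhibitory SMADs Smad6 and Smad7, and the early targets Id1 and Id3. They were taken by gene symbol from a table of 23045 genes, and all 10 were found and had values high enough to be tested. The table holds total RNA-seq of 4 WT and 4 Mettl3 KO heart libraries. WT hearts were Mettl3 lox/lox, with no Cre recombinase. Mettl3 KO hearts were Mettl3 lox/lox with αMHC-MerCreMer, a tamoxifen-activated Cre made in cardiomyocytes only, so that other heart cells keep the gene. Per the study's methods, mice of both genotypes were aged 10 to 16 weeks and received tamoxifen on 7 days (100 µg per 1 g body weight, intraperitoneally). No library carried MerCreMer without the lox/lox alleles, so the transgene and the loss of Mettl3 cannot be told apart. The labels do not say that each library came from its own animal, and p-values measure only the spread between these libraries.

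BMP ligands are secreted as dimers and bind a pair of type I and type II receptors. The type II receptor activates the type I receptor, which phosphorylates SMAD1, SMAD5 and SMAD9, and these enter the nucleus with SMAD4. ID genes are switched on within this first response, as are Smad6 and Smad7, whose products dampen the signal. In the heart, BMP2 and BMP4 act in valve and septum formation, and BMP10, made by trabecular cardiomyocytes of the embryo, is in the adult known as a product of atrial muscle. METTL3 is the enzyme that writes N6-methyladenosine (m6A) on RNA.

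The libraries were alike in depth, with normalized read counts summing to 2839589 to 2916986 and an estimated 2631270 to 3062443 assigned reads behind them. The targeted gene followed the labels: Mettl3 had 105, 133, 118 and 107 normalized read counts in WT 1 to 4 and 74, 68, 69 and 78 in Mettl3 KO 1 to 4. The count covers all exons, and cells other than cardiomyocytes contribute to it. Esr1, the estrogen receptor gene that gave MerCreMer its tamoxifen-binding part, had 13 to 20 in WT libraries against 693 to 851 in Mettl3 KO. The cardiomyocyte genes Myh6, Tnnt2 and Tnni3 were high in all 8 libraries. The labels name the tissue as heart and do not say how it was dissected, so how much atrium each library holds is not known. In bulk tissue, fewer cells of a type and less RNA per cell cannot be told apart.

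Of the 10 BMP genes, 3 passed the test (limma on log2(value + 1), Benjamini-Hochberg adjusted p under 0.05 over all 20313 genes tested), and all of these, Bmp10, Bmpr1a and Bmpr2, were higher in Mettl3 KO hearts. That is 30.0% of the members, against 7.91% of all tested genes called in either direction and 4.72% called higher. Of the 3, Bmp10 was at 0 in every WT library and was high enough to be tested only through Mettl3 KO libraries. The members were chosen with earlier results of these data known, so this share is a description. With 10 genes, the share stands on few calls, and leaving out single libraries gave 1 to 3. None was lower, also at an unadjusted p under 0.05, where 4 were higher and 0 lower (10.8% of all tested genes were higher at this p), or with limma voom, which called 2 higher and 0 lower (4.56% of all tested genes higher). WT and Mettl3 KO libraries were fully apart for 3 members, Bmp4, Bmpr1a and Bmpr2, each higher in Mettl3 KO hearts, against 11.5% of all tested genes without overlap in either direction. The median log2 fold change was 0.11 over the members and -0.01 over all tested genes.

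**Figure D1:**
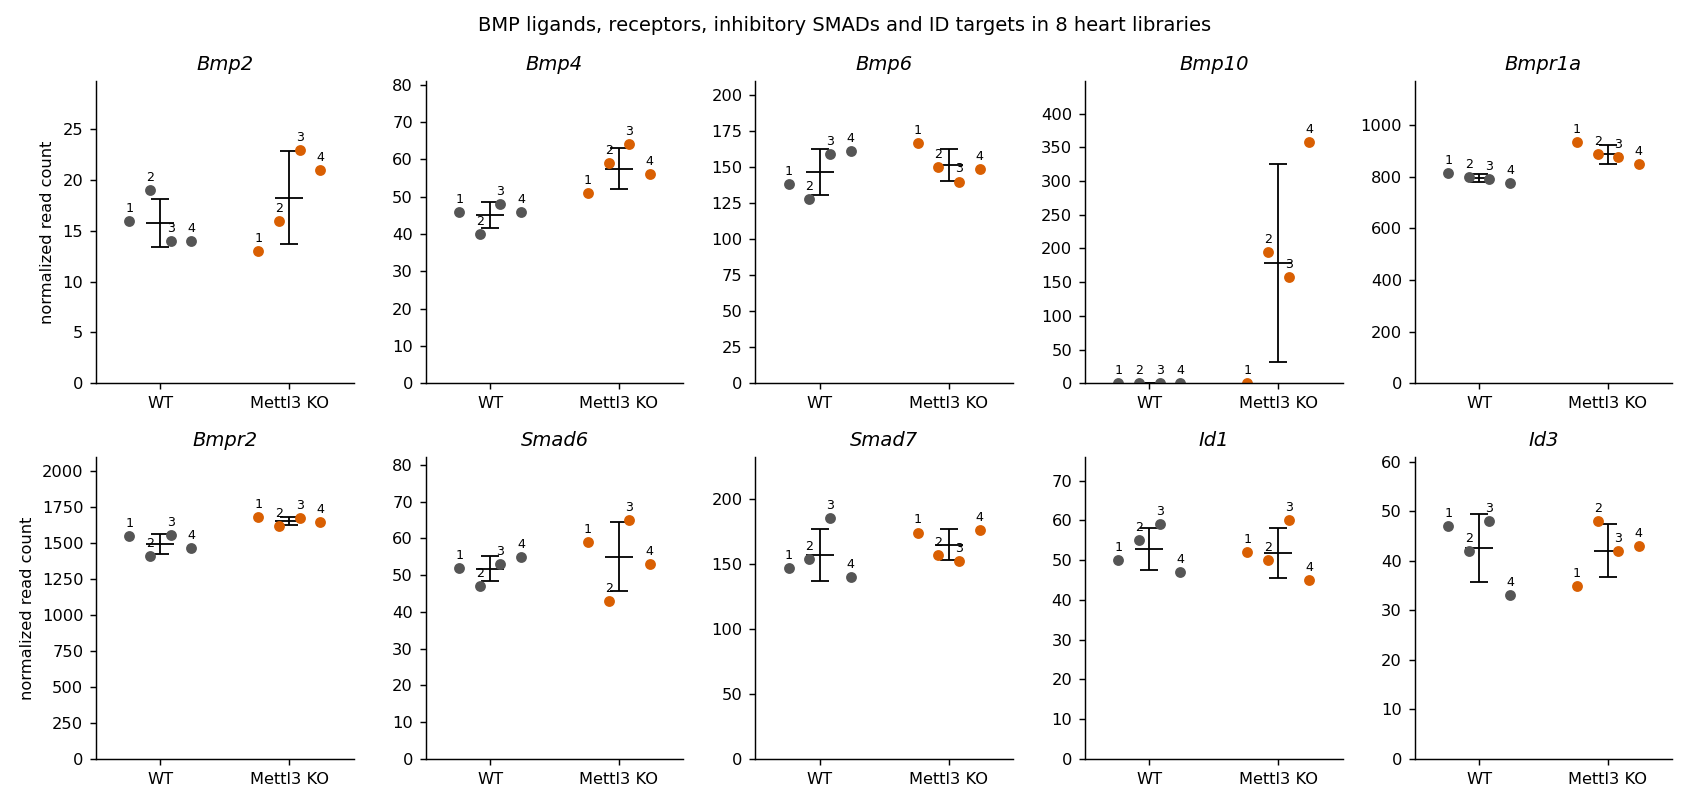
Normalized read count (vertical axes, linear, from 0, with a scale of its own for each gene) of the 10 BMP genes in WT and Mettl3 KO libraries. Points are single libraries with their number, and the horizontal mark and bar give the mean ± SD (n = 4). Bmp10 lies at 0 in 5 libraries and at 158 to 358 in the other three, while the WT and Mettl3 KO points of Id1 and Id3 cover the same range.

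The ligands were examined first. Bmp10 (ENSMUSG00000030046, mm39 chromosome 6, 87405976 to 87414659, plus strand) had no read in WT 1 to 4, and 0, 195, 158 and 358 normalized read counts in Mettl3 KO 1 to 4. It was thus high in Mettl3 KO 2, 3 and 4, and Mettl3 KO 1 was like WT. A count of 0 means that no read was seen, which allows an expected number of up to 3 reads. That is at most 3.05 normalized read counts in a WT library and 3.33 in Mettl3 KO 1. Measured against that highest WT floor, Bmp10 was at least 64.0-fold higher in Mettl3 KO 2, 51.8-fold in Mettl3 KO 3 and 117-fold in Mettl3 KO 4. These floors cover counting error only. The values stand for about 196, 151 and 385 reads, and the highest of the 3 libraries was 2.27 times the lowest.

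The genotype difference of Bmp10 passed the test (limma adjusted p = 0.00114), but its fitted log2 fold change of 5.85 (SE 1.08) depends on the pseudocount and is no measure of size. The call was lost in 3 of 19 alternatives, with limma voom (adjusted p = 0.534) and with the atrial and endothelial covariates described below. Without Mettl3 KO 1, the limma log2 fold change was 7.81.

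The spread of Bmp10 between libraries was known when it was chosen, so the values on it are a description, and the gene reaches the mean used here only through the 3 libraries where it is high. Its coefficient of variation over all Mettl3 KO libraries, the library without reads included, was 82.7%. The median over 9317 genes with a Mettl3 KO mean of at least 50 was 7.19%. A single other gene of these was more variable, the lncRNA 2610507I01Rik (named after its values were seen), with 113, 16, 4 and 85 normalized read counts and a coefficient of variation of 97.0%. Its order over the libraries was not that of Bmp10.

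The library pattern of Bmp10 was therefore set beside genes of atrial muscle. Myl7, the atrial regulatory light chain, had 26, 21, 0 and 23 normalized read counts in WT 1 to 4 and 23, 65, 90 and 119 in Mettl3 KO 1 to 4. Mettl3 KO 1 lay within the WT range for Myl7, as it did for Bmp10, and the other three Mettl3 KO libraries lay above it. Sln, which encodes sarcolipin, an inhibitor of the sarcoplasmic calcium pump, had 12, 6, 0 and 4 in WT libraries against 10, 34, 29 and 64 in Mettl3 KO. Fgf12, a channel-regulating fibroblast growth factor homologue, had 3, 8, 3 and 4 in WT libraries against 2, 19, 24 and 58 in Mettl3 KO. For both, Mettl3 KO 4 was the highest library. Mettl3 KO 1 was within the WT range for Sln and, at 2, just under it for Fgf12. The ratio of Bmp10 to Myl7 was 3.00, 1.76 and 3.01 in Mettl3 KO 2 to 4.

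Other atrial markers differed in part. Kcnj3, an atrial potassium channel gene, did not rise, with 532 to 616 in WT libraries against 438 to 572 in Mettl3 KO, where Mettl3 KO 1 was the lowest (log2 difference -0.14, limma adjusted p = 0.290). Dkk3, a secreted WNT modulator, had 84, 66, 36 and 71 in WT libraries against 132, 165, 208 and 307 in Mettl3 KO, and Nppa, which encodes atrial natriuretic peptide, had 282, 243, 175 and 292 and then 452, 410, 508 and 481. For these genes, Mettl3 KO 1 was above every WT library. Myl4 had 112, 114, 17 and 110 in WT libraries against 113, 269, 287 and 370 in Mettl3 KO. Stard10 had 60, 60, 73 and 65 and then 54, 86, 85 and 100. Of the whole list of 9 atrial markers, 6 rose (limma adjusted p under 0.05) and 0 fell, where 4.72% of all tested genes were called higher. The median log2 fold change of the 9 markers was 1.64. Their summed normalized read count was 2383 to 2701 in WT libraries against 3064 to 3874 in Mettl3 KO, lowest in WT 3 and, within the knockout, in Mettl3 KO 1. The largest part of that sum came from Pam, an enzyme of peptide amidation, with 1463 to 1539 in WT and 1777 to 1895 in the knockout. Myl7 and Sln were at 0 in WT 3 and above 0 in every other library. In WT 1, 2 and 4, Bmp10 was at 0 and Myl7 at 21 to 26. With the mean log2 level of the atrial markers as a covariate, the log2 fold change of Bmp10 was 2.19 (limma adjusted p = 0.387). That level was 4.98 to 6.37 in WT and 6.42 to 7.91 in Mettl3 KO libraries. Since it does not overlap between genotypes, this fit cannot tell it and genotype fully apart. The part of atrial tissue in the libraries in this result was not tested.

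**Figure D2:**
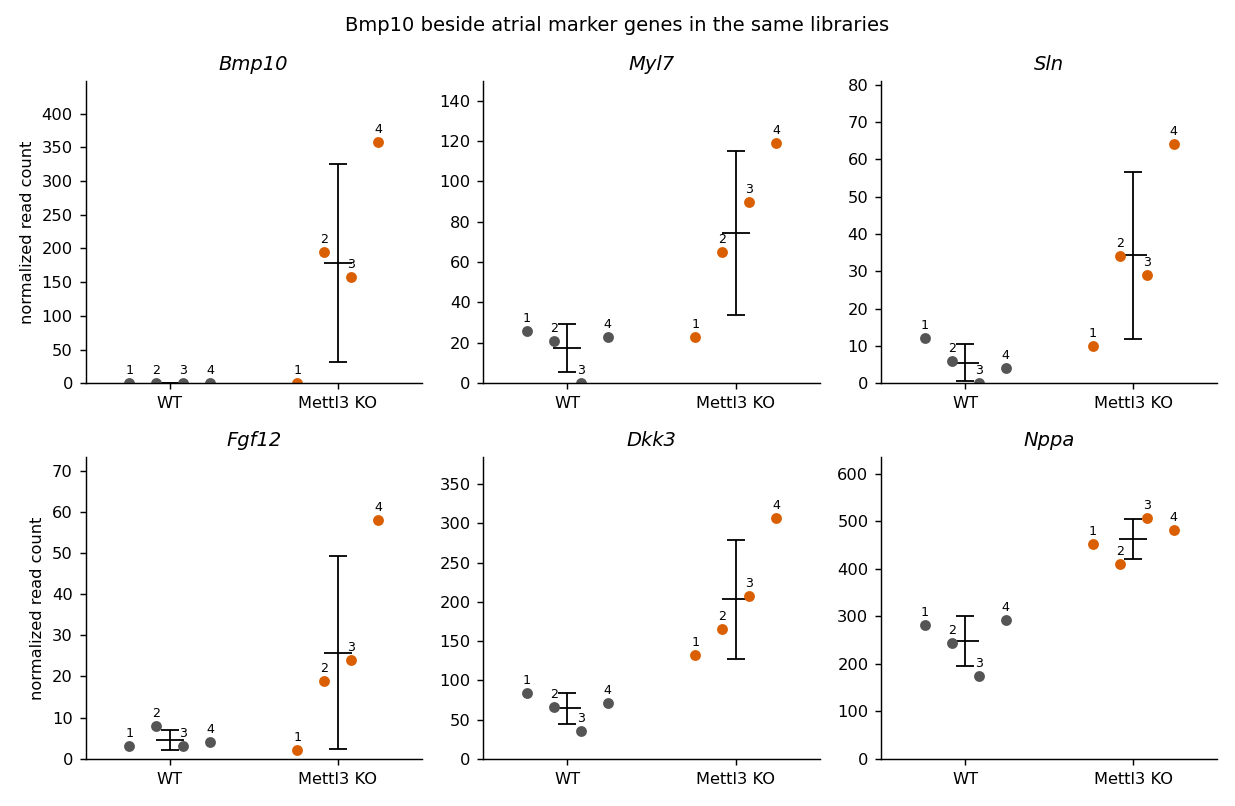
Normalized read count (vertical axes, linear, from 0, with a scale of its own for each gene) of Bmp10 and 5 atrial marker genes in WT and Mettl3 KO libraries. Points are single libraries with their number, and the mark and bar give the mean ± SD (n = 4). Mettl3 KO 1 lies in the WT range for Bmp10, Myl7 and Sln, at 2 just under it for Fgf12, but above all WT libraries for Dkk3 and Nppa, and WT 3 is at 0 for Myl7 and Sln.

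The genes whose deviations from the genotype means were most like those of Bmp10 over the 8 libraries were Syne3, 1810030O07Rik, Plcd1, Hs3st5 and She, with Pearson r between 0.977 and 0.987 among 13795 genes with a mean of at least 10. These r values are a description. WT deviations of Bmp10 are all 0, and the likeness rests on Mettl3 KO 1, which was lowest for each of these genes. Syne3 had 98, 100, 103 and 100 in WT libraries against 65, 91, 91 and 100 in Mettl3 KO, and Hs3st5, a heparan sulfate sulfotransferase gene, had 119, 104, 116 and 113 and then 41, 89, 83 and 85.

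Sequence upstream of the Bmp10 start is shown because this gene went from no read in any WT library to the most variable member. The RefSeq window (250 bases before the annotated start, GRCm38.p6 chr6:87428744-87428993, plus strand) was searched on both strands for GGCGCC and CAGAC, short sequences that SMAD proteins can bind. It held neither, which says only that these letters are not in this window, and so it has no capitals.
Bmp10 promoter: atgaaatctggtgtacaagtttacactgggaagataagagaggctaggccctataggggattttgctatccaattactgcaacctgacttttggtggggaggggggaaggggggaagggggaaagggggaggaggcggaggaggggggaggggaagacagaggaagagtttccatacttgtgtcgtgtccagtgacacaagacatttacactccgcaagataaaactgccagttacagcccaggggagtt
The table's own coordinates are of mm39, and the promoter coordinates were used for sequence only.

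Bmp4 (ENSMUSG00000021835, chromosome 14, 46620977 to 46628126, minus strand) had 46, 40, 48 and 46 normalized read counts in WT libraries against 51, 59, 64 and 56 in Mettl3 KO. Every Mettl3 KO library was above every WT library, yet with a log2 difference of 0.35 (SE 0.13) the gene did not pass over all genes (limma adjusted p = 0.119). The 95% interval of the fold ran from 1.05 to 1.53 on the log2(value + 1) scale. Bmp4 lies over Gm15222 on the opposite strand, which had means of 3.25 and 4.75. Reads were counted by strand.

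Bmp2 (ENSMUSG00000027358, chromosome 2, 133394079 to 133404805, plus strand) was the ligand closest to the limit of depth among those found in all libraries. It had 16, 19, 14 and 14 in WT libraries against 13, 16, 23 and 21 in Mettl3 KO, and the genotypes overlapped. Its log2 difference between genotypes was 0.18 (SE 0.24, limma adjusted p = 0.757), and the interval of 0.803- to 1.60-fold leaves room for a sizeable change either way.

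Bmp6 (ENSMUSG00000039004, chromosome 13, 38529083 to 38684278, plus strand), known also as a regulator of iron balance, had 138, 128, 159 and 161 in WT libraries against 167, 150, 140 and 149 in Mettl3 KO. The genotypes overlapped, with a log2 difference of 0.05 (SE 0.09, limma adjusted p = 0.820) and an interval of 0.912- to 1.18-fold. Per kilobase of exon (length from GENCODE), Bmp6 was the highest of the ligands in WT hearts with 37.6 normalized read counts (32.8 to 41.3), above Bmp4 with 20.02 (17.8 to 21.4) and Bmp2 with 4.43 (3.94 to 5.34), and these ranges do not overlap. In Mettl3 KO hearts Bmp10 spanned 0 to 79.7 on this scale, from none to more than every library's Bmp6.

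The receptors showed the most even change. Bmpr1a (ENSMUSG00000021796, chromosome 14, 34132691 to 34225298, minus strand), a type I receptor, had 816, 798, 792 and 777 normalized read counts in WT libraries against 936, 887, 875 and 848 in Mettl3 KO. Bmpr2 (ENSMUSG00000067336, chromosome 1, 59802559 to 59918173, plus strand), the type II receptor, had 1550, 1408, 1553 and 1463 in WT libraries against 1679, 1618, 1673 and 1645 in Mettl3 KO. For both genes every Mettl3 KO library was above every WT library. The rise was small, with a log2 difference of 0.15 for Bmpr1a (SE 0.04, limma adjusted p = 0.0292, 1.05- to 1.19-fold). Bmpr2 rose by a like amount, 0.15 (SE 0.04, limma adjusted p = 0.01995, 1.05- to 1.17-fold).

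These were also the members with the least spread between libraries, with coefficients of variation of 2.03% and 4.15% for Bmpr1a in WT and Mettl3 KO hearts and of 4.73% and 1.70% for Bmpr2. The calls were near the threshold. Bmpr1a was not called in 9 of 19 alternatives, among them the fits without WT 2, 3 or 4 and without Mettl3 KO 1, 2 or 3, while its log2 fold change stayed between 0.13 and 0.22. Bmpr2 was lost in 4 of 19, namely without WT 2, WT 4 or Mettl3 KO 3 and with the endothelial covariate described below, and its log2 fold change lay between 0.05 and 0.20. Per kilobase of exon, Bmpr1a (125 in WT) and Bmpr2 (83.1) stood above all other members, and their ranges did not overlap. Next in WT came Id1 with 45.5 (40.5 to 50.9), Bmp6 and Smad7 with 34.6 (31.0 to 40.9), whose neighbouring ranges overlapped, then Id3 with 23.7 (18.4 to 26.8), Bmp4 and Smad6 with 16.1 (14.7 to 17.2), of which Bmp4 overlapped with Id3 but not with Smad6. Bmpr2 shares its strand with the unclassified transcript Gm38125 (means 28.0 and 26.5), and reads over both were dropped.

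Since both receptor genes rose, their promoter windows are shown, with matches to GGCGCC on either strand in capitals. Each held the motif once, and 9.59% of all 32851 windows of this length held it at least once. Neither held CAGAC. The windows are GRCm38.p6 chr14:34502547-34502796 (minus strand) for Bmpr1a and chr1:59764029-59764278 (plus strand) for Bmpr2. Their GC content was 78.8% and 64.0%. A match is a description and no site of binding.
Bmpr1a promoter: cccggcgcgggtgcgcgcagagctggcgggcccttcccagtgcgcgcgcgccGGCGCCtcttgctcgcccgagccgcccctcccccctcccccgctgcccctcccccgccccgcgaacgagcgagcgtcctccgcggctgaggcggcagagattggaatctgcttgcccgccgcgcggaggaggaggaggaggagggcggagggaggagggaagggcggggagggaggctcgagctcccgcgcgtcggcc
Bmpr2 promoter: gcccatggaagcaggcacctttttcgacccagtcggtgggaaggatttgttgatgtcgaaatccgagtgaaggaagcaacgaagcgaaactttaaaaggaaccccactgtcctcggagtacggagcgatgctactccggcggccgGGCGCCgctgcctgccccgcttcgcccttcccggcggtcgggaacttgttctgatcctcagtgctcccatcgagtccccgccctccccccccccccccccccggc

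The inhibitory SMADs, which are read as feedback of the pathway, did not pass the test. Smad6 (ENSMUSG00000036867, chromosome 9, 63860358 to 63929341, minus strand), whose product acts mainly on BMP receptors, had 52, 47, 53 and 55 in WT libraries against 59, 43, 65 and 53 in Mettl3 KO. Mettl3 KO 2 was the lowest and Mettl3 KO 3 the highest of all libraries, so the WT range lay inside that of the knockout. The log2 difference between genotypes was 0.07 (SE 0.14, limma adjusted p = 0.844, 0.861- to 1.28-fold). Smad7 (ENSMUSG00000025880, chromosome 18, 75500600 to 75529006, plus strand), which also inhibits TGF-beta receptors, had 147, 154, 185 and 140 in WT libraries against 174, 157, 152 and 176 in Mettl3 KO. The single highest value belonged to WT 3. Its log2 difference between genotypes was 0.08 (SE 0.09, limma adjusted p = 0.699, 0.930- to 1.20-fold).

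The early targets did not pass the test either, and their WT and Mettl3 KO libraries overlapped. Id1 (ENSMUSG00000042745, chromosome 2, 152578171 to 152579330, plus strand), an inhibitor of basic helix-loop-helix factors, had 50, 55, 59 and 47 in WT libraries against 52, 50, 60 and 45 in Mettl3 KO. The log2 difference between genotypes was -0.03 (SE 0.13, limma adjusted p = 0.943), and changes outside 0.808- to 1.19-fold lie beyond its interval. Id3 (ENSMUSG00000007872, chromosome 4, 135870808 to 135873066, plus strand), of the same family, had 47, 42, 48 and 33 in WT libraries against 35, 48, 42 and 43 in Mettl3 KO. WT 4 was its lowest library and Mettl3 KO 1 the next. Its log2 difference between genotypes was -0.01 (SE 0.16, limma adjusted p = 0.985, 0.792- to 1.24-fold).

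For these feedback and target genes, 0 of 4 were called by limma or limma voom, and 0 of 4 had an unadjusted p under 0.05. With 7.91% of all tested genes called, 4 genes are too few to read anything from this count. The values of Id1 and Id3 in Mettl3 KO 4, where Bmp10 was highest, were 45 and 43, and those in Mettl3 KO 1, where it was at 0, were 52 and 35. Across libraries and within genotypes, Id1 and Id3 had a Pearson r of 0.28 over 8 libraries, which is given as a description. Genes most like Id1 by the same measure were Srpr, Atf6b, Polr3c, Celsr2 and Hook1, and those most like Smad6 were Rabggta, Gm47260, Myo5b, Tollip and Rragc.

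The Id3 window is shown as that of a target with SMAD letters that did not pass the test. It held CAGAC 2 times (1 on each strand, in capitals, GTCTG being the reverse complement), at GRCm38.p6 chr4:136143572-136143821, plus strand, and 42.2% of all windows held this motif at least once.
Id3 promoter: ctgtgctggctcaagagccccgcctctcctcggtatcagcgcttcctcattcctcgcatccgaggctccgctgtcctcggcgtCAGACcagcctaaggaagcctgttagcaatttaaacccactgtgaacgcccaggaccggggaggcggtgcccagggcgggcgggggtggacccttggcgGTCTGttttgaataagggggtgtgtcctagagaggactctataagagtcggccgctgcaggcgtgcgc
Of the 10 members, 7 had a RefSeq promoter window searched, and Bmp2, Smad7 and Id1 were not searched. Among the others searched, Bmp6 held CAGAC once, and Bmp4 and Smad6 held neither motif.

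Other genes of the pathway were then counted, from a list of 53 of which 46 were tested. Of these, 7 (15.2%) rose and 0 fell in Mettl3 KO hearts, against the 7.91% of all tested genes called. The list was chosen with earlier results of these data known, so its shares are a description. Leaving out single libraries gave 3 to 6 calls. At an unadjusted p under 0.05, 12 were higher and 2 lower, against 10.8% and 9.79% of all tested genes. With limma voom, 6 were called higher and 0 lower, against 4.56% and 3.03% of all tested genes. By role, 1 of 5 other ligands, 1 of 9 other receptors or co-receptors, 0 of 9 intracellular components, 4 of 15 extracellular or membrane modulators and 1 of 8 further targets passed.

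**Figure D3:**
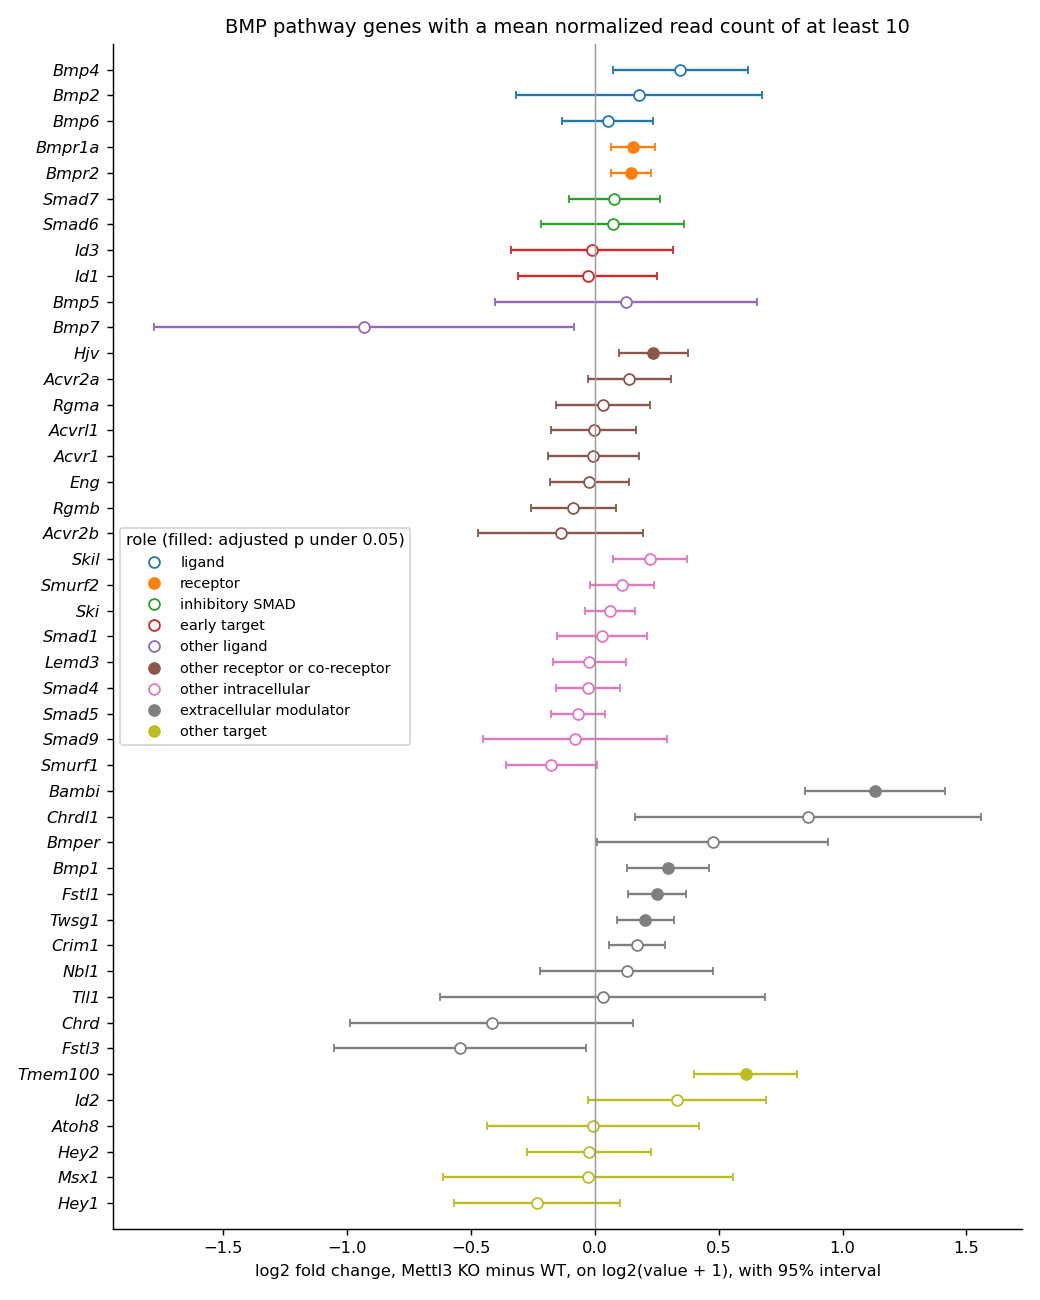
Log2 fold change (horizontal axis, Mettl3 KO minus WT on the log2(value + 1) scale) with its 95% interval for 45 BMP pathway genes with a mean normalized read count of at least 10, coloured by role, with filled points for an adjusted p under 0.05. Bmp10 is left out because its fitted value depends on the pseudocount. Bambi and Tmem100 lie well to the right of 0, as does Chrdl1 with a wide interval and an open point. Bmp7 (-0.93) and Fstl3 (-0.55) lie to the left of 0, also with wide intervals and open points. Bmpr1a and Bmpr2 lie just above 0 with short bars, and the intervals of Id1 and Id3 span 0.

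The modulators held the clearest change. Bambi, a receptor-like protein without a kinase domain that blocks BMP and TGF-beta signalling, had 43, 44, 38 and 40 normalized read counts in WT libraries against 109, 108, 77 and 77 in Mettl3 KO. The genotypes were far apart, with a log2 difference of 1.13 (SE 0.14, limma adjusted p = 1.09e-05). Fstl1, a secreted follistatin-like protein, had 618, 509, 575 and 546 in WT libraries against 704, 630, 662 and 674 in Mettl3 KO, a log2 difference of 0.25 (SE 0.06, limma adjusted p = 0.00639). Twsg1, which binds BMPs together with chordin, had 357 to 385 in WT libraries against 413 to 462 in Mettl3 KO (0.20, SE 0.06, limma adjusted p = 0.0249). Bmp1, which in spite of its name is a protease that cleaves chordin and procollagen, had 170 to 212 in WT libraries against 212 to 252 in Mettl3 KO (0.30, SE 0.08, limma adjusted p = 0.0230). WT 3 and Mettl3 KO 4 had the same value for Bmp1, and for the other three genes every Mettl3 KO library was above every WT library.

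Tmem100, a membrane protein induced by BMP9 and BMP10 in endothelium, had 91, 70, 96 and 83 in WT libraries against 131, 132, 128 and 126 in Mettl3 KO. The log2 difference between genotypes was 0.61 (SE 0.10, limma adjusted p = 0.000384). Its Mettl3 KO values were nearly equal, at 126 to 132, while Bmp10 in the same libraries ran from 0 to 358. Hjv, the co-receptor hemojuvelin, had 452, 447, 489 and 407 in WT libraries against 611, 502, 523 and 484 in Mettl3 KO (0.24, SE 0.07, limma adjusted p = 0.0314), with a small overlap of WT 3 and Mettl3 KO 4. Gdf6, a BMP family ligand, had 4, 5, 2 and 2 in WT libraries against 3, 12, 14 and 18 in Mettl3 KO, so that Mettl3 KO 1 was again in the WT range. Its log2 difference between genotypes was 1.44 (SE 0.44, limma adjusted p = 0.0440), several WT values are at or under the floor of 3 reads, and the call was lost in 12 of 18 alternatives. The calls of Hjv and Bmp1 were each lost in 7 of 19 alternatives and that of Twsg1 in 6, with a change of sign in 1 more.

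**Figure D4:**
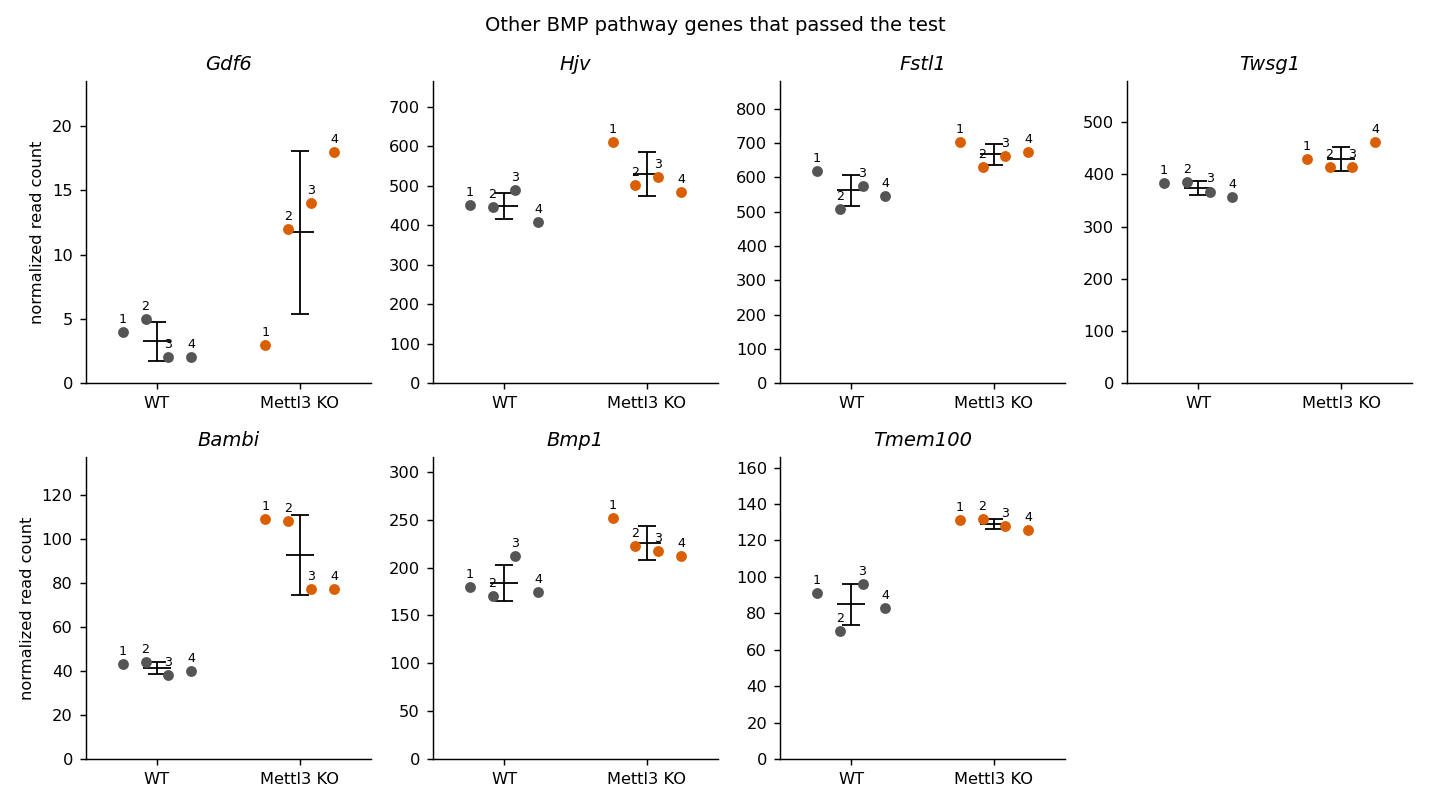
Normalized read count (vertical axes, linear, from 0, with a scale of its own for each gene) of the 7 other BMP pathway genes that rose in Mettl3 KO hearts. Points are single libraries with their number, and the mark and bar give the mean ± SD (n = 4). Bambi and Tmem100 separate the genotypes widely, and Gdf6 is high in Mettl3 KO 2, 3 and 4 but at 3 in Mettl3 KO 1.

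Of the 8 other receptors or co-receptors that did not pass, Acvrl1 and Eng, which with Bmpr2 take up BMP9 and BMP10 in endothelium, had log2 fold changes of -0.00 and -0.02. Their limma adjusted p-values were 0.993 and 0.926. Acvr1, another type I receptor, was at -0.01, while the activin type II receptors Acvr2a and Acvr2b were at 0.14 and -0.14. The signal-carrying Smad1, Smad5, Smad9 and Smad4 had log2 fold changes of 0.03, -0.07, -0.08 and -0.03, and none was called. At an unadjusted p under 0.05, 1 of the 9 intracellular components was higher, the SMAD repressor gene Skil (0.22, limma adjusted p = 0.0593), which is near the 10.8% of all tested genes, and limma voom called 0.

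Markers of some other heart cells moved with genotype as well, where 7.91% of all tested genes were called in either direction. Of 8 fibroblast markers 7 rose (median log2 fold change 0.39), and their summed normalized read count was 3493 to 3883 in WT libraries against 4398 to 5060 in Mettl3 KO. Of 8 endothelial markers 4 fell, among them Kdr and Tie1 (median -0.17), with sums of 5172 to 5361 and 4466 to 4867. In each other list 1 marker passed. The cardiomyocyte gene Ryr2, the pericyte gene Abcc9 and the macrophage gene Cd163 were lower, each 1 of 8 (12.5%). The mesothelial gene Upk3b was higher, 1 of 4. A single call in a list of 8 is near the share of all tested genes and says nothing of its cell type. The mesothelial list, with 25.0% called, had a median log2 fold change of 0.87, with 3 genes higher and 1 lower. Its 4 genes are too few to read anything from this. No defining marker of these lists was at 0. The 8 smooth muscle and pericyte markers summed to 4719 to 5136 in WT and 4381 to 4680 in Mettl3 KO libraries. The largest part of that sum came from Abcc9, with 2105 to 2302 in WT and 1826 to 1980 in Mettl3 KO. Of this list, 3 genes were higher and 5 lower. Its mean log2 level overlapped between genotypes (8.15 to 8.34 in WT, 8.08 to 8.31 in Mettl3 KO), so the list did not move as a whole. The sums do not overlap between genotypes for fibroblast, endothelial or smooth muscle and pericyte markers. The fibroblast sum rose, as did Bmpr1a, Bmpr2, Bambi, Fstl1 and Tmem100. The endothelial sum and the smooth muscle and pericyte sum fell. With the endothelial marker level as a covariate, 0 of 10 BMP genes and 0 of 46 other pathway genes were called, but only 7 genes were called over the whole table, so that in these libraries it and genotype cannot be told apart. Log2 differences in this fit were 1.73 for Bambi (SE 0.35), 0.22 for Bmpr1a (SE 0.12) and 0.51 for Tmem100 (SE 0.28). Bmp1 was at 0.29 (SE 0.22), Hjv at 0.22 (SE 0.19), Bmpr2 at 0.05 (SE 0.11) and Fstl1 at 0.05 (SE 0.15). Twsg1 was at -0.0031 (SE 0.14), Gdf6 at 0.45 (SE 1.18) and Bmp10 at 3.52 (SE 2.98). Each SE was larger than without the covariate, so these values do not set the genes apart from each other. With the atrial covariate, whose level did not overlap between genotypes either, 1 of 10 members was called, Bmpr2. Bmpr1a was at 0.21 (limma adjusted p = 0.0590) and Gdf6 at 0.16. There, 7 other pathway genes were called: Bambi, Bmp1, Fstl1, Hjv and Tmem100 as before, and in addition Bmp7 and Skil. The part of these cell types in the results was not tested.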

How the data were processed

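Total RNA of mouse hearts (1 µg per library) had been sequenced as stranded single-end reads of 72 bases. The deposited values are a score: counts that the authors normalized with DESeq2 1.36.0 and that are given as whole numbers, so the table holds no raw counts, and of methods made for counts only limma voom was tried, as an alternative. Per the study's methods and the submitters' processing notes, the authors trimmed reads with Trimmomatic 0.39, aligned them to the mm39 genome by STAR 2.7.11a with Ensembl gene models, removed duplicates with Picard 3.1.1, and used featureCounts 2.0.4 to count exonic reads by strand, without those over several genes. Leaving out duplicates can lower short, abundant transcripts.

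All 8 columns were used, with groups from the labels. The test was limma 3.58.1 (R 4.3.3) with trend and a single term, genotype, on log2(value + 1) of the 20313 genes whose mean reached 1, so that 2732 were not tested. Tests were two-sided, with Benjamini-Hochberg adjustment over all tested genes, and a gene was called at an adjusted p under 0.05. A fold change on this scale understates the change of low genes. The normalized value of 1 read (0.927 to 1.11, highest in the library with the fewest reads) was estimated from the spacing of low values. Reads are the value divided by it, and a value of 0 allows an expected number of up to 3 reads. The fit and this estimate were tested on simulated data. Promoters came from RefSeq (GRCm38.p6) and exonic lengths from GENCODE of the same earlier build, whose coordinates were not set against those of the table.

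The 10 members and the lists (other pathway genes, and markers of atrial muscle, cardiomyocytes, fibroblasts, endothelium, smooth muscle and pericytes, macrophages and mesothelium) were chosen with earlier results of these data known. Named were the members, Mettl3, Esr1, called genes of the pathway list, others of it given for their role, marker examples, and the 5 genes most like Bmp10, Id1 and Smad6. Pathway genes of the list beyond the 46 tested were not analysed here. Alternatives were pseudocounts, filters, TMM factors, quantile normalization, limma voom, a replicate block, 2 marker covariates and each library left out. The 19th, chosen after seeing the data, left out WT 3 and Mettl3 KO 1 together.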

Additional observations from a re-analysis of the deposited data

Results flagged for a closer look

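Bmp10 in Mettl3 KO hearts is listed here because Mettl3 KO 1, at 0 normalized read counts, stood apart from the other three libraries on the log2(value + 1) scale, in a search added after seeing the data. The spread of this gene was known when it was chosen, so the values are a description and no test. The gap to the nearest library was 0.862 of the range of the group, above Dixon's critical value for 4 samples. The share depends on the scale: it was 0.876 with a pseudocount of 0.5, 0.813 with a pseudocount of 5, which is under that value, and 0.455 on the linear scale. On the linear scale no group of 4 libraries of a BMP gene passed the critical value. Chance alone marks about 1 in 20 groups, or 0.95 of the 19 groups with a range.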

How the results depend on the processing

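Between 1346 and 1687 of all genes were called under the other pseudocounts, filters, scalings, limma voom and the replicate block, with 2 or 3 of the 10 BMP genes. Leaving out single libraries gave 1019 to 1596 genes, 1 to 3 BMP genes (1 without WT 2, WT 4 or Mettl3 KO 3) and 3 to 6 other pathway genes (3 without WT 4, and 4 without WT 1, WT 2, Mettl3 KO 2 or Mettl3 KO 3). Log2 fold changes then ran from -0.010 to 0.099 for Bmp6, -0.012 to 0.18 for Smad6, -0.10 to 0.034 for Id1 and -0.12 to 0.072 for Id3. Without WT 3 and Mettl3 KO 1 together, 1176 genes and 2 BMP genes were called, and Id1 was at 0.021 and Id3 at 0.13. With the atrial covariate, 867 genes, 1 BMP gene and 7 other pathway genes were called, with Bmp2 at -0.23 and Id1 at 0.13. With the endothelial covariate, 7 genes, 0 BMP genes and 0 other pathway genes were called, with Bmp2 at -0.30, Smad6 at -0.21, Smad7 at -0.23, Id1 at 0.051 and Twsg1 at -0.0031. The causes were not tested. None of the members with a changed sign was called in any setting. Gdf6 had no value with a mean of at least 10.

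Libraries with the same replicate number did not deviate together (correlations 0.067, 0.034, -0.024 and 0.062), so the numbers were not taken as pairs. With a replicate block, 1346 genes (1304 shared) were called, with the same 3 BMP genes (Bmp10, Bmpr1a and Bmpr2) and 5 other pathway genes, Gdf6 and Twsg1 being lost. Values of Gdf6 in WT hearts are at or near the floor of 3 reads.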

Other observations

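Several secreted BMP antagonists outside the called genes were then read out. Sost, which encodes sclerostin, had 7, 9, 4 and 8 normalized read counts in WT 1 to 4 and 10, 14, 10 and 15 in Mettl3 KO 1 to 4, without overlap (log2 fold change 0.75, SE 0.31, limma adjusted p = 0.154). Nbl1 had 39 to 67 and 46 to 66, with overlap. Chrdl1, a chordin-like antagonist, had 10, 6, 4 and 10 normalized read counts in WT 1 to 4 and 9, 11, 23 and 15 in Mettl3 KO 1 to 4 (log2 fold change 0.86, SE 0.34, limma adjusted p = 0.131). Nog, which encodes noggin, had 0 to 3 in WT libraries against 0 to 5 in Mettl3 KO, near the floor of 3 reads. Fstl3, an activin and BMP binding protein, had 23, 26, 27 and 22 and then 22, 19, 19 and 9 (-0.55, SE 0.25, limma adjusted p = 0.202).

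Bmp7, a ligand widely made in the kidney and in the embryo, had 15, 21, 12 and 34 in WT libraries against 3, 7, 19 and 18 in Mettl3 KO. It was lowest in Mettl3 KO 1 and 2, and the genotypes overlapped (-0.93, SE 0.41, limma adjusted p = 0.190).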
